A study of Caenorhabditis elegans with 2 samples.

Results

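PHA-4 regions inside introns, 805 in all, were chosen from the strongest 6000 of the 30000 regions in a pooled list. The experiment was done on L4 larvae of Caenorhabditis elegans. The authors deposited the pooled list as peaks and background, the input for the irreproducible discovery rate (IDR). Of the 805, 155 (19.3%) were in the authors' list that passed the IDR threshold, and the others were not. A region was kept when its summit, the position the authors gave as its peak, lay inside a protein-coding gene, in no annotated exon, and outside every protein-coding promoter window. A promoter window reached from 1000 bp upstream to 200 bp downstream of a transcript's 5′ end. Signal and being in an intron outside promoter windows chose the members, so these are given below as descriptions without a test, while intron order and sequence were not used by the rule and are tested. All 805 summits fell in an intron of an annotated protein-coding transcript, although 239 of the regions (29.7%) overlapped an exon.

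Chromatin immunoprecipitation followed by sequencing was done on whole animals of mixed sex (pooled male and female) of strain OP37. Its genotype is unc-119(ed3) III; wgIs37. Where the wgIs37 insertion lies in the genome was not examined here. The labels give 1 group of 2 biological replicates, with eGFP-tagged PHA-4 as the target. There was no second condition, the control library was not analysed here, and the sequencing depth is unknown, since the files hold regions and no read counts. Whole larvae mix all tissues, so a stronger region and a larger share of cells with binding cannot be told apart.

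PHA-4 is a forkhead (FoxA) transcription factor. It specifies the pharynx in the embryo, where it binds genes that switch on early and late in the making of that organ, and it is also present in the intestine and other tissues of larvae and adults. In animals under dietary restriction it is required for the longer lifespan, and it acts in genes of autophagy. Introns of worm genes can hold enhancers and the start sites of shorter transcripts, and the first intron is often the longest.

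The summit windows of 12 intronic regions are printed here in 101 bp, centred on the summit, on the strand of the host gene and in the ce11 build (sequence from the RefSeq copy of WBcel235, the same assembly). Capitals mark matches to the PHA-4 consensus TRTTKRY on either strand, in which R stands for a purine, Y for a pyrimidine and K for guanine or thymine. The first 8 are shown because they come from the 9 strongest members, in order of signal; the window of the daf-16 region, which ranks between those of Y41G9A.17 and epg-9, is not printed:
Y111B2A.12, intron 4, chrIII:12612633-12612733, plus strand: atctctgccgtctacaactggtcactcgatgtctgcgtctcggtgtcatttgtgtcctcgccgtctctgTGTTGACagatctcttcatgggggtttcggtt
fkh-7, intron 4, chrIV:5604603-5604703, plus strand: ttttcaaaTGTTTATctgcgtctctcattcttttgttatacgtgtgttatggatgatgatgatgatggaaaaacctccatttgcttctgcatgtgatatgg
pes-4, intron 1, chrIII:1223853-1223953, minus strand: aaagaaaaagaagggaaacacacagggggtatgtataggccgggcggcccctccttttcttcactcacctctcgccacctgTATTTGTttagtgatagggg
Y41G9A.17, intron 6, chrX:2997056-2997156, minus strand: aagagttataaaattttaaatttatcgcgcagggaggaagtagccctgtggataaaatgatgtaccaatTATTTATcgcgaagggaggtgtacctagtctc
epg-9, intron 2, chrIV:2602117-2602217, plus strand: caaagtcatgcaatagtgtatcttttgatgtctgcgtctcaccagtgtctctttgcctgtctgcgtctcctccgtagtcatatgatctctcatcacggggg
wdr-62, intron 12, chrV:9451650-9451750, plus strand: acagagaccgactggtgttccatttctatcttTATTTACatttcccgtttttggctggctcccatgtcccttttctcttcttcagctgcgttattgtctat
fkh-7, intron 1, chrIV:5594017-5594117, plus strand: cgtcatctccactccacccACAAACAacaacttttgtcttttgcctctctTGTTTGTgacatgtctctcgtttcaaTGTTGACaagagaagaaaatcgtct
abts-4, intron 17, chrX:6750306-6750406, minus strand: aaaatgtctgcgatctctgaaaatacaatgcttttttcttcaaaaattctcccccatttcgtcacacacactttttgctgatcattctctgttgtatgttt

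The next 4 windows are shown because they hold the most consensus matches, from 4 to 6 each; capitals again mark the matches, some of which overlap:
mbl-1, intron 6, chrX:17006039-17006139, plus strand: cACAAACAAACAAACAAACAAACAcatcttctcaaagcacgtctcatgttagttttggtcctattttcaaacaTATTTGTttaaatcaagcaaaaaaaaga
fkh-7, intron 4, chrIV:5603489-5603589, plus strand: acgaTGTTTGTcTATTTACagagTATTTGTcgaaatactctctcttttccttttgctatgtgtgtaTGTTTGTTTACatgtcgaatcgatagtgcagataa
ell-1, intron 1, chrIV:4397272-4397372, plus strand: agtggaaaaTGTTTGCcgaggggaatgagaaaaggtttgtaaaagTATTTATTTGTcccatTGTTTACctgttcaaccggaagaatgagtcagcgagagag
Y37E11AM.4, intron 2, chrIV:3720753-3720853, minus strand: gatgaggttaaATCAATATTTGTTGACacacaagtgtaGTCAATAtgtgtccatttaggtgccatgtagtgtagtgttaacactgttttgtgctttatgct

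Of the 9 strongest members, 6 held a consensus match in the window, and those in daf-16, epg-9 and abts-4 held none. In mbl-1, which encodes a muscleblind splicing regulator, most of the matches come from a short repeat, and another, TATTTGT, lies outside it. The region itself was of middling signal (16.52 in the pooled list, rank 3543). In the fkh-7 window with 5 matches the pooled signal was 54.01, and in ell-1 it was 33.3. The strict forkhead core TGTTTAC stood in those windows of fkh-7 and ell-1, and the ell-1 window also held TGACTCA, the AP-1 sequence.

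The strongest intronic region lay in Y111B2A.12, with a signal of 91.95 in the pooled list, 39.5 in replicate 1 and 54.29 in replicate 2. It ranked 13 of all regions and lay in intron 4 of 7, in an intron of 7076 bp, 3394 bp from the nearest 5′ end of its host. The values are the authors' signal per region, whose scale is not stated, and the pooled list and the replicate lists were called separately. In all of the 12 strongest members the pooled value was above both replicate values. All 12 were also in the authors' list of regions that passed the IDR threshold.

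Next came fkh-7, which encodes a forkhead factor like PHA-4 itself, with 72.98 in the pooled list, 31.34 in replicate 1 and 43.63 in replicate 2. The region in pes-4 had 70.45 pooled, 41.9 in replicate 1 and 31.44 in replicate 2. The region in Y41G9A.17 had 63.46, 38.59 and 26.52 in the same order. Replicate 2 was higher in the first of these and replicate 1 in the others.

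A region in daf-16, which encodes the FoxO factor that insulin signalling restrains, had 60.29 pooled, 34.87 in replicate 1 and 26.91 in replicate 2. A region in epg-9, an autophagy gene related to mammalian ATG101, had 59.03, 36.75 and 24.03. A region in wdr-62, which encodes a WD-repeat protein, had 58.82, 30.42 and 27.6. These lay 1209, 1026 and 3529 bp from the nearest 5′ end of their hosts, in introns of 12401, 1824 and 4694 bp.

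A second region in fkh-7 had 57.55 pooled, 30.29 in replicate 1 and 25.86 in replicate 2. The gene abts-4, of the anion and bicarbonate transporter family, held 2 of the 12: one with 57.47, 28.34 and 33.91, the other with 56.52, 37.74 and 17.85. Those summits were 8005 and 5816 bp from the nearest coding 5′ end, which belonged to the neighbouring gene mdl-1. The second abts-4 region had the widest gap between replicates among the 12. The remaining hosts were Y59C2A.2, with 57.12, 28.71 and 30.85, and zfp-1, a chromatin gene related to human AF10, with 54.19, 21.26 and 31.69.

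**Figure D1:**
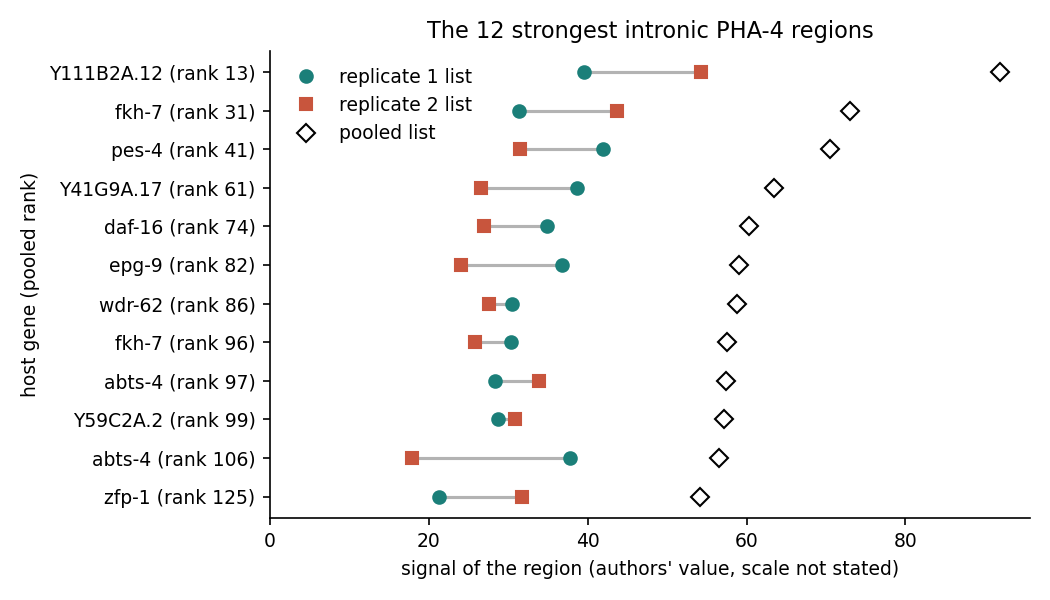
Signal of the 12 strongest intronic regions (x axis, the authors' value, scale not stated) by host gene and pooled rank (y axis), with circles for replicate 1, squares for replicate 2 and open diamonds for the pooled list. The pooled values run from 54.19 to 91.95 and the replicate values from 17.85 to 54.29.

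Over all 805 members the pooled signal ran from 11.38 to 91.95, with a median of 17.02. The median was 19.19 in the 3391 promoter regions, 17.95 in the 1369 intergenic regions and 15.75 in the 435 exonic regions of the strongest 6000. Introns outside promoter windows made up 26.6% of the genome's bases and held 13.4% of the strongest regions. Their share of regions was 10.9% in ranks 1 to 1000 and 15.9% in ranks 5001 to 6000. At the edge of the rule, the members just inside were in C17H11.6 (11.38), srt-52 (11.377) and mpk-1 (11.376), and the intronic regions just outside were in bre-3 (11.355), kin-1 (11.331) and btbd-10 (11.322).

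The lists of replicates 1 and 2 held 21039 and 20807 regions, and a region in them could count for more than 1 member. A region with a summit within 150 bp was found in both replicate lists for 675 members (83.9%). None was found in replicate 1 for 59 members and none in replicate 2 for 72, 1 of which had none in either. Where both had one, the log2 ratio of replicate 1 to replicate 2 had a mean of 0.19 and an SD of 1.00 (n = 675 regions), and 210 members (31.1%) differed by more than 2-fold. The widest gaps were in lin-14 (23.32 in replicate 1, 2.306 in replicate 2), F09A5.3 (17.01 and 2.036) and gld-2 (16.06 and 2.363) on one side. On the other side were pxn-1 (2.025 in replicate 1, 18.81 in replicate 2), vhp-1 (2.217 and 16.34) and itr-1 (2.422 and 17.52). The lin-14 and vhp-1 regions were in the IDR list all the same, which held 155 members (19.3%) in all. Among the strongest regions of the other classes, the IDR list held 27.9% of promoter, 23.2% of intergenic and 15.2% of exonic regions. These shares were not compared by a test.

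Most host genes held 1 member. The 805 regions lay in 532 host genes, 3.07% of the 17309 protein-coding genes with any eligible base, meaning a base that meets the rule on place. Of these hosts, 382 held 1 member, while 74 held 3 or more and accounted for 281 members (34.9%). In 13 cases a summit lay in introns of 2 overlapping genes and counts under both. The share of genes with a member went up with the eligible bases they offered, from 0.592% of genes with up to 1000 eligible bases to 31.3% of the 348 genes with more than 10000.

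The gene with most members was fkh-7, with 10 in 2 introns. The gene overlaps 78 annotated piRNA genes, and 98.7% of its eligible bases, with all 10 summits, lay in promoter windows drawn around 5′ ends of non-coding RNAs, so it holds no member when those windows are left out too; the part of those genes in its signals was not tested. Without them the hosts with most members were hmr-1 (9), lin-14 (7) and tir-1 (7). The first intron of fkh-7, of 16465 bp, held 8 of its 10 members, with pooled signals of 57.55, 42.24, 36.25, 29.55, 24.68, 19.16, 13.86 and 11.5. Its intron 4, of 3019 bp, held the strongest at 72.98 and another at 54.01, both upstream of an internal 5′ end of the gene, at 1577 and 2691 bp. The consensus was found at 7 of the 10 summits, and 6 of the 10 were in the IDR list. The 3 summits without it were those of the lowest signals, 11.5, 13.86 and 19.16.

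hmr-1, the classical cadherin gene, held 9 members with lower signals, from 12.17 to 27.96, in introns 21, 22 and 25. lin-14, whose nuclear protein sets the timing of larval development, held 8, from 13.27 to 51.04. Its strongest region, in an intron of 482 bp, had 51.04 pooled, 24.89 in replicate 1 and 23.28 in replicate 2. tir-1, the worm SARM gene of neuronal and immune signalling, held 7, with 30.28 as the highest. Its regions of ranks 982 and 4283 overlap, with summits 202 bp apart, and are counted separately.

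**Figure D2:**
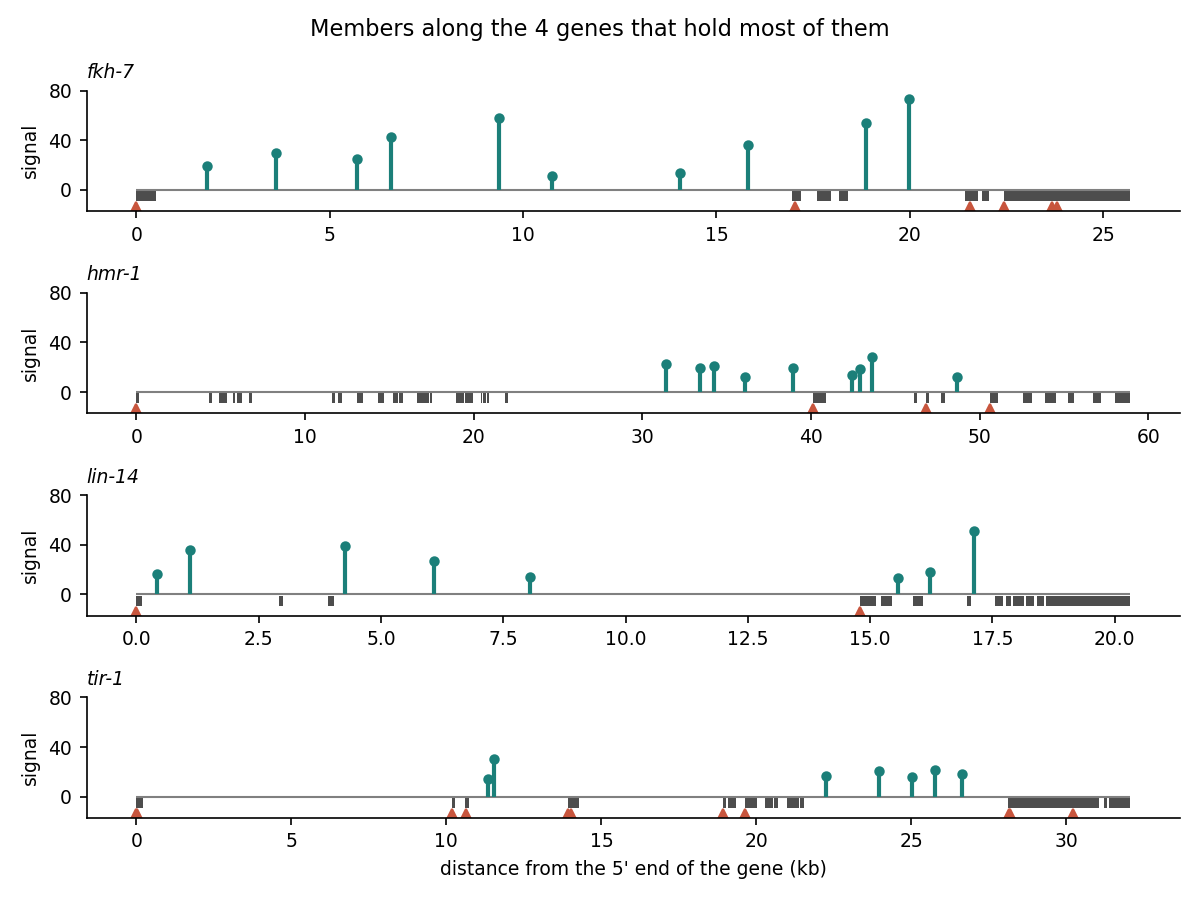
Members along the 4 genes that hold most of them, with distance from the 5′ end of the gene in kb on the x axis and the pooled signal on the y axis; dark boxes below the line are exons of all transcripts and triangles are transcript 5′ ends. Members of fkh-7 spread over introns 1 and 4. All members of fkh-7, hmr-1 and tir-1 lie upstream of an internal 5′ end of their gene.

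The other hosts with most members were mnk-1, a MAP kinase-interacting kinase gene, with 7 (highest 25.88), and daf-5, a Ski/Sno-like factor of the TGF-beta dauer pathway, with 6 (highest 41.82). daf-12, the nuclear hormone receptor of the dauer decision, held 6 (highest 29.31), all in its first intron, and 5 of them held the consensus. mtm-3, a myotubularin phosphatase gene, held 6 (highest 21.03), of which 3 lacked a region in one replicate. The mtm-3 regions of ranks 3094 and 3126 overlap, with summits 225 bp apart, and are also counted separately.

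Transcription factor families differed widely as hosts. The lists of genes below were chosen with earlier results of these data known, and are described beside all genes, without a test. Of the forkhead and GATA list, 6 of 24 genes with eligible bases held a member (25%), at 27.8 members per 100 kb of eligible bases against 3.02 over all genes. All 6 are named here: fkh-7, daf-16, pha-4, fkh-9 (34.19), egl-27 (23) and fkh-6 (14.15), and 10 of their 22 members were in fkh-7 alone. With non-coding RNA windows left out, 3 of 23 genes of this list remained hosts (daf-16, pha-4 and fkh-6), with 6 members, at 12.7 per 100 kb against 2.7 over all genes. Of those 6 members, 3 were in pha-4 itself. Of the nuclear hormone receptors 13 of 269 held a member (4.83%), at 6.08 per 100 kb. Of the homeobox genes 1 of 97 did (1.03%), at 0.469 per 100 kb, although their median of eligible bases, 1423, was above that of all genes, 683.

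In daf-16 the other regions had pooled signals of 38.17 (20.84 in replicate 1, 15.81 in replicate 2) and 17.75 (8.533 and 8.392). pha-4 itself held 3 intronic regions, with 44.52 (25.57 in replicate 1, 15.64 in replicate 2), 40.65 (14.12 and 25.49) and 12.12 (5.148 and 6.327). The strongest of these lay in intron 2 and the next in intron 1, whose window held 3 consensus matches. Whether wgIs37 adds copies of the pha-4 introns was not examined, so its part in the pha-4 signals was not tested. Among nuclear hormone receptor genes nhr-34 had the highest member, with 54.18 (35.68 and 25.1), followed by nhr-19 with 49.41 (30.51 and 23.81) and nhr-3 with 36.09 (22.42 and 11.31). The homeobox host was dve-1, with 28 (16.32 and 12.67). Among basic helix-loop-helix genes, 3 of 39 were hosts: hlh-30, the worm TFEB gene, with 5 members and a highest signal of 42.41, mdl-1 (19.8) and hlh-11 (15.08).

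Genes of insulin, TOR and energy sensing were hosts in 10 of 65 cases (15.4%), at 9.8 members per 100 kb. daf-16 and hlh-30 stand in this list too. aakg-1, for a gamma subunit of AMP-activated kinase, had 38.09 pooled, 19.1 in replicate 1 and 16.44 in replicate 2. aak-2, for a catalytic subunit of that kinase, had 35.64 (11.2 and 23.92), and let-363, the TOR kinase gene, had 32.49 (6.859 and 19.61). The let-363 region lay in intron 29 of 31 and nearer to the 5′ end of vep-1 than to its host's own. skn-1, the Nrf factor gene, had 23.39 and daf-2, the insulin receptor gene, 14.24. The genes from aak-2 on in this paragraph were named after their values were seen.

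The lists of signalling and adhesion genes had host shares from 11.1 to 15.9%, and their medians of eligible bases, from 1541 to 3093, were above that of all genes, 683. The kinase and small GTPase list had 19 hosts of 132 genes (14.4%, 5.38 per 100 kb), led by kin-1, the catalytic subunit of protein kinase A (52.58 pooled, 42.94 and 12.03 in replicates 1 and 2), then kin-20 (39.71) and par-1 (39.04). Genes with the provisional name tag, whose products need not be kinases or GTPase regulators, were 4 of these 19 hosts. The EGF, FGF, Notch and TGF-beta list had 9 of 65 (13.8%, 6.81 per 100 kb), led by sma-9 (43.01), daf-5 and the SMAD gene daf-14 (38.65). The Wnt list had 4 of 36, led by mom-1, a Porcupine homologue (50.94, with 28.35 and 21.47 in the replicates), nhl-3 (32) and lit-1 (25.39). The list took in genes named nhl, for NHL-domain proteins, which are not known as Wnt pathway components, and 2 of its 4 hosts were such genes. The adhesion and axon guidance list had 14 of 88 (15.9%, 4.67 per 100 kb), led by unc-115 (37.41), cdh-10 (28.78) and the netrin receptor gene unc-5 (28.78).

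Of pharynx genes, 13 of 105 were hosts (12.4%, 6.71 per 100 kb): after pha-4, the strongest were in pqn-41 (40.44, with 34.14 in replicate 1 and 5.339 in replicate 2) and in peb-1, whose product binds pharyngeal enhancers (30.7, with 21.56 and 7.299). That list took in genes named pqn, for glutamine- and asparagine-rich proteins, not all of which are known from the pharynx, and they were 5 of its 13 hosts. Muscle structure genes numbered 11 of 65 (16.9%, 5.4 per 100 kb), with low signals: dim-1 (22.02), the tropomyosin gene lev-11 (21.55) and the perlecan gene unc-52 (21.34) led them. Among metabolism and transport genes 17 of 446 were hosts (3.81%, 3.29 per 100 kb), close to all genes; after abts-4 came nhx-8 (44.4) and the pyruvate kinase gene pyk-1 (34.03). RNA-binding and splicing genes had 7 hosts of 91, with sym-2 (49.47), larp-1 (27.95) and gld-2 (26.1) first. The sym-2 value is also that of twk-4, since the summit lies in introns of both.

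Genes of neurotransmitter receptors and ion channels had low densities. Of the neurotransmitter receptor genes 2 of 191 were hosts (1.05%, 0.495 per 100 kb), ser-1 (13.55) and ser-2 (15.6). Of the ion channel genes 2 of 138 were (1.45%, 0.609 per 100 kb), twk-4 (49.47) and itr-1 (22.04), although their median of 2532 eligible bases was far above that of all genes. Without non-coding RNA windows, 1 of 186 receptor genes and 1 of 134 channel genes were hosts. Synaptic vesicle and active zone genes had 4 of 50 (1.96 per 100 kb), led by unc-43 (35.71), unc-116 (27.08) and unc-104 (14.73). Basement membrane and matrix genes had 3 of 59 (1.91 per 100 kb, or 1 of 57 and 0.783 without non-coding RNA windows), pxn-1 (22.15), gon-1 (18.98) and gpn-1 (17.87), and chromatin regulators 3 of 105 (2.7 per 100 kb), zfp-1, hda-4 (40.07) and set-18 (30.59).

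Intronic regions lay in long introns. The median length of the introns that held members was 3179 bp (counted by member, range 44 to 100912), against 81 bp over all 82080 introns with eligible bases and 886 bp over those introns weighted by their eligible bases. Members per 100 kb of eligible bases went from 1.29 in introns of up to 500 bp to 2.26 at 1000 to 2000 bp, 5.36 at 2000 to 5000 bp, 7.59 at 5000 to 10000 bp and 7.26 above that. A member stood in 627 introns (0.764% of all), and in 159 of the 621 introns over 5000 bp (25.6%, exact 95% interval 22.2 to 29.2). In 116 introns 2 or more members stood together, which made up 294 members, and the most in 1 intron was 8, in fkh-7. In 54 members the intron was shorter than the region itself.

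First introns held more members than their length share. Of the 805, 273 lay in a first intron (33.9%, exact 95% interval 30.6 to 37.3), while first introns held 20.9% of the eligible bases (exact two-sided binomial test over regions, p = 1.34e-17). The density was 4.9 members per 100 kb in first introns, 2.97 in intron 2, 2.44 in intron 3, 2.89 in intron 4 and 2.28 from intron 5 on. In introns over 5000 bp, however, first introns held 45% of the members against 43.6% of the bases (p = 0.631 by the same exact test, n = 282), a comparison added after these values were seen. In introns up to 5000 bp it was 27.9% against 17.2% (exact p = 1.14e-09, n = 523). That class pools lengths of unlike density. Up to 1000 bp, first introns had 1.7 members per 100 kb (33 members) and later ones 1.35. At 1000 to 5000 bp the densities were 5.7 and 3.07. Members of 1 intron are not independent, and with only the strongest member of each intron kept the first-intron share was 31.9% of 627 (exact p = 1.28e-10).

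**Figure D3:**
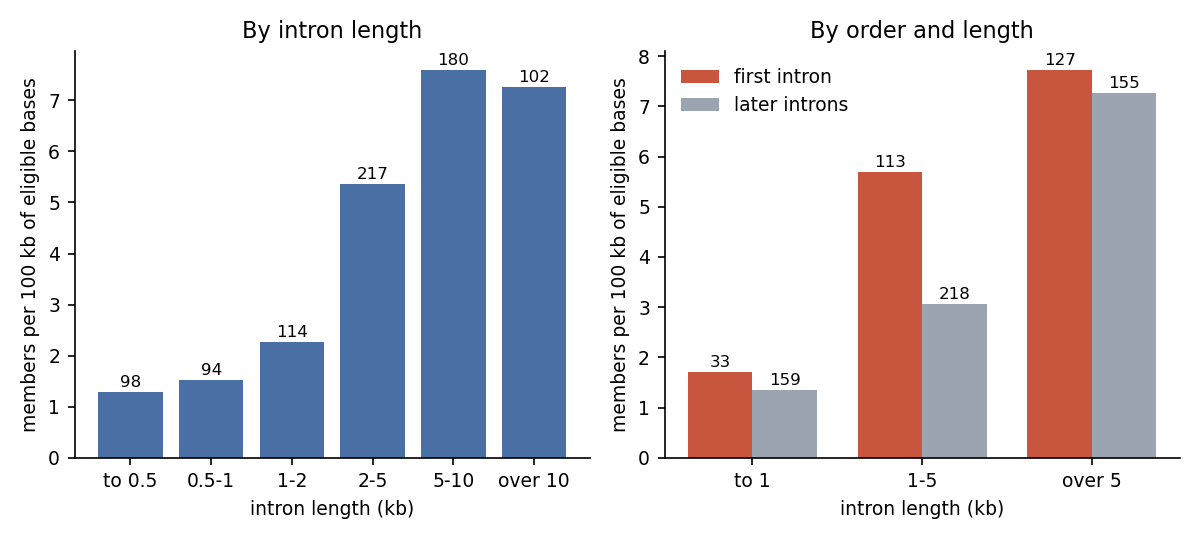
Members per 100 kb of eligible bases by intron length (left) and by intron order within length classes (right), with the number of members above each bar. Density goes from 1.29 in introns up to 0.5 kb to 7.59 at 5 to 10 kb, and first introns exceed later ones most at 1 to 5 kb (5.7 against 3.07).

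Many members also lay ahead of a start site inside their own host. In 464 (57.6%, exact 95% interval 54.1 to 61.1) an annotated 5′ end of the same gene lay downstream of the summit, against 23.8% of eligible bases, and in 247 it was within 3000 bp. Such distances start at 1012 bp, since the promoter windows were left out, and their median was 2748 bp. Within introns over 2000 bp the shares were 82.8% of 499 members against 59% of bases, and within shorter introns 16.7% of 306 against 9.15%. This was counted as a description only. The nearest coding 5′ end was the host's own for 730 members (90.7%), at a median of 1506 bp from the summit. Over all 805 the median distance to a 5′ end of the host was 1651 bp, against 1837 bp for eligible bases. A window of the same size around a non-coding RNA's 5′ end covered 178 members (22.1%), those of fkh-7 among them, and 12.6% of eligible bases.

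The members deepest inside a gene were also those in the longest intron, the first intron of nhr-27, of 100912 bp. They lay 48307, 43620 and 41690 bp from the nearest 5′ end of nhr-27, with pooled signals of 22.46, 18.87 and 12.47. Other genes stand inside this intron: the nearest coding 5′ ends were those of cept-1 (2136 bp) and pgp-14 (1454 and 476 bp), and the last of these summits is inside pgp-14 too. By chromosome, density was highest on X, with 4.18 members per 100 kb (187 members), and lowest on V, with 2.03 (95 members). Of the strongest regions of any class, X also held most (1279) and V fewest (890). Members made up 14.6% of those on X, 14.6% on II and 10.7% on V.

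The consensus stood at 386 of 805 summits (48%, exact 95% interval 44.5 to 51.5), within the 101 bp window. In flanking windows of the same width, 500 bp towards the 3′ end of the host, it stood in 24.8%, and in 23.7% of 197807 windows tiled over all eligible bases. The difference from the flank was larger than counting error (exact binomial test on members where only one window held it, adjusted over the 7 sequences searched, p = 1.88e-20). Matches gathered within 100 bp of the summit: 28.7% of members had one in the 50 bp before it and 24.6% in the 50 bp after it, against 10.4 to 17.4% in bins beyond 100 bp. Summits are coarse, since 801 of the 805 stand at the middle of their region, most of which are 310 bp wide.

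**Figure D4:**
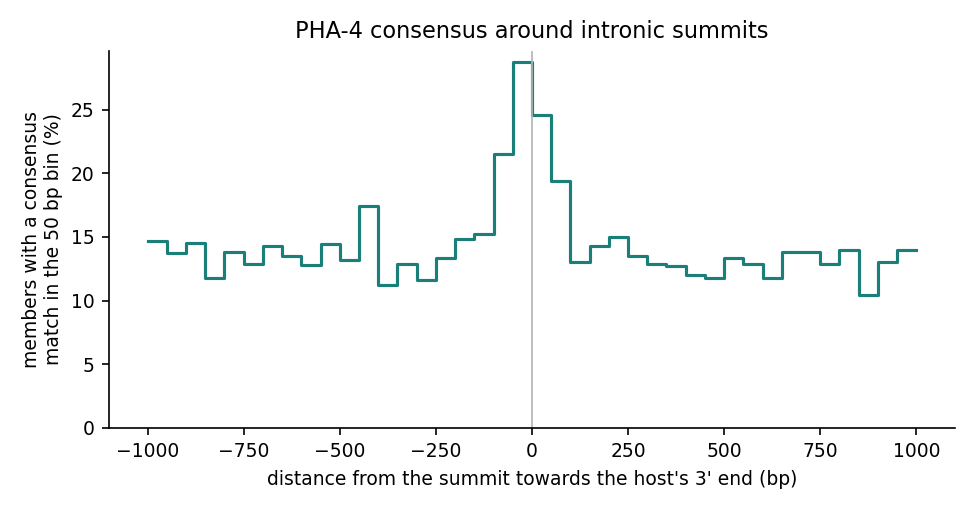
Share of the 805 members with a consensus match in each 50 bp bin (y axis, %) by distance from the summit in bp along the host's strand (x axis). The share peaks at 28.7% and 24.6% on either side of the summit and lies between 10.4 and 17.4% beyond 100 bp.

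The other sequences searched on both strands were also more frequent at the summits. The consensus letters read backwards, YRKTTRT, of the same composition, stood in 34.4% of summit windows, 23.2% of flanks and 22.1% of all windows (adjusted exact p = 1.52e-06), a smaller gap than that of the consensus itself. Some sequences match both forms, so this search is not independent of that for the consensus. TGTTTGT, at 10.6% of summits and 2.86% of flanks, is such a sequence. The strict forkhead core TGTTTAC, which is one form of the consensus, stood in 5.71%, 1.24% and 1.05% (adjusted exact p = 2.18e-06). GAGAGA stood in 26%, 7.2% and 4.01% (adjusted exact p = 5.02e-23). The AP-1 sequence TGACTCA stood in 5.22% of summits, 1.37% of flanks and 0.735% of all windows (adjusted exact p = 7.76e-06). TGATAA, bound by GATA factors, stood in 13.8, 7.95 and 8.4% in the same order (adjusted exact p = 0.000232). The E-box CACGTG stood in 4.47, 1.86 and 1.34% (adjusted exact p = 0.0046). The median A+T content was 58.42% at the summits and 64.36% in the flanks, and its part in these differences was not tested.

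**Figure D5:**
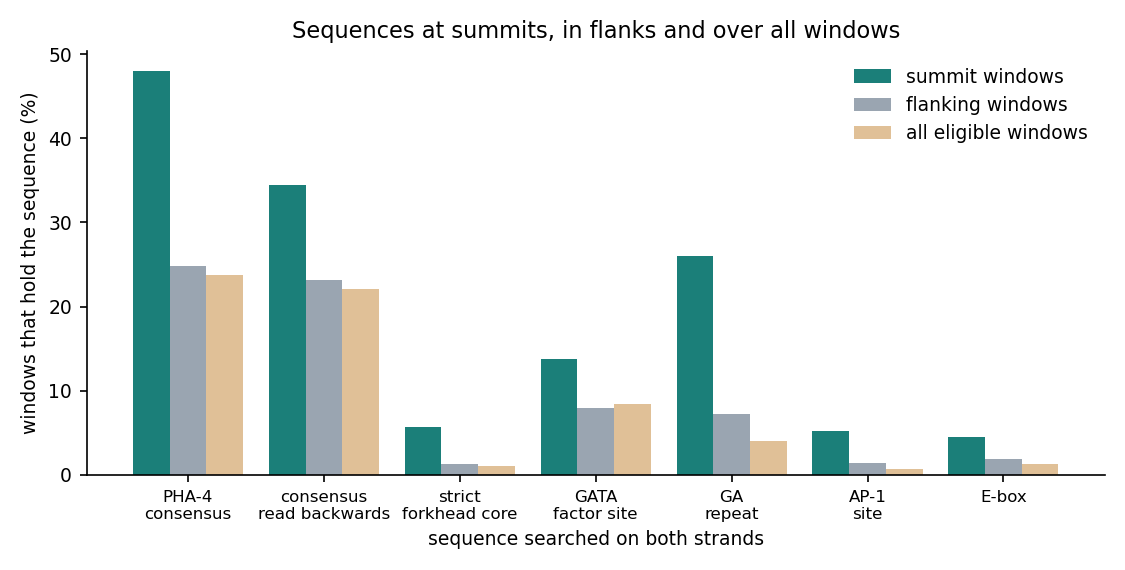
Share of windows of 101 bp that hold each searched sequence on either strand (y axis, %), at the 805 summits, in their flanks and over all eligible windows. The PHA-4 consensus (48% against 24.8%) and the GA repeat GAGAGA (26% against 7.2%) show the widest gaps between summit and flank in percentage points.

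Among all 8192 sequences of 7 bases, with reverse complements merged, 272 (3.32%) differed between summits and flanks at an adjusted p under 0.05 (exact binomial test, Benjamini-Hochberg), 124 more frequent at summits and 148 less. The 5 with the smallest p were AAAAATT (6.34% of summits, 26.3% of flanks), AGAGAGA (14 and 1.61%), AAAAAAT (9.07 and 26.2%), CTCTCTC (12.4 and 1.49%) and AAAATTA (2.86 and 14.5%), with adjusted exact p from 1.32e-23 to 2.97e-14. Runs of A and T were thus rarer at the summits, and repeats of GA were more common. AGAGACG, whose complement CGTCTCT can be read in the printed windows of Y111B2A.12 and the strongest fkh-7 region, stood at 8.07% of summits and 0.497% of flanks (adjusted exact p = 2.84e-12); it was named after its values were seen.

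No difference in the consensus between intronic summits and the other strongest regions passed the test. The share was 45.6% in the 5195 others, 2.31 percentage points lower (95% interval of the difference -1.38 to 6.02, Fisher's exact test adjusted over 4 comparisons, p = 0.299). Against promoter regions (44.8%) the difference was 3.13 points (-0.696 to 6.96, adjusted exact p = 0.231), and against intergenic regions (48.9%) it was -0.917 points (-5.25 to 3.43, adjusted exact p = 0.689). Exonic regions had 41.8%, 6.11 points lower (0.301 to 11.8), with an adjusted exact p of 0.169. Regions, not animals, are the units of these tests.

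Within the members, the consensus stood at 54% of the 202 summits with the highest signal (23.79 and above). In the next 3 groups of 201 by falling signal it stood at 49.3, 40.8 and 47.8%, and the intervals of neighbouring groups overlap. It stood at 43.6% of summits in first introns and 50.2% in later ones, and at 49.4% of those ahead of an internal 5′ end and 46% of the others. In the 155 members of the IDR list it was 52.9% (exact 95% interval 44.7 to 61), and in the other 650 it was 46.8% (42.9 to 50.7). After the printed windows, the next in number of consensus matches was that of inx-13, an innexin gene, with 4 and a pooled signal of 12.58 (9.539 in replicate 1, 2.58 in replicate 2).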

How the data were processed

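The authors deposited lists of regions in narrowPeak layout. Per the manifests deposited with the samples, the replicate lists and the pooled list were called on ce11 alignments against a control, and the IDR list was derived from them; no source used here names the caller or its settings. Signal values are as the authors deposited them, of unstated scale. The deposited −log10 q values reach a cap and were not used. Lists for ce10 were not used.

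The members and gene lists were chosen with earlier results of these data known. Summits were placed on Ensembl release 115 genes (WBcel235, the ce11 assembly) and sequence was read from the RefSeq copy of WBcel235. The intron was that of the host's longest transcript containing the summit. Named were the 12 strongest members, the 8 hosts with most members, up to 3 hosts per list, the members nearest the threshold, with most consensus matches, in the longest introns, deepest, or with the widest replicate ratios, and the 5 leading sequences of 7 bases; exceptions are marked. Exact binomial and Fisher tests used SciPy 1.17.1, and difference intervals are Newcombe's. Alternatives changed the number of regions, promoter windows, flanks, window width, intron assignment and replicates. Intervals cover counting error only, depth being unknown, and regions sharing an intron are not independent.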

Additional observations from a re-analysis of the deposited data

How the results depend on the processing

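No paired analysis was possible because the labels give 1 group only. Taking the strongest 3000 regions gave 355 members, 116 called sequences of 7 bases, a median intron length of 3728 bp and 96.6% of members with a region in both replicates. Taking the strongest 10000 gave 1540 members, 2818 bp and 63.8%, and the consensus was then 2.87 points more frequent in introns than in the other regions (Fisher's exact test, unadjusted p = 0.0385). The IDR list alone gave 155 members, 3938 bp and 99.4%. Joining replicate summits within 300 bp gave 90.3%. The median intron length was 3248 to 3287 bp in the lists of single replicates, 3666 bp and 3151 bp with wider and narrower promoter windows, 3233 bp without windows of non-coding RNAs, 2888 bp with the shortest intron and 2191 bp with 1 member per intron. The first-intron excess was lost in introns over 5000 bp (45% of members against 43.6% of bases, exact p = 0.631), a setting added after seeing the data. Under the alternatives run, the gain of the consensus at summits over flanks kept its direction and its call, with a log2 ratio from 0.64 to 1.23. The depth is unknown, so what it limits could not be measured.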
